A study of Mus musculus with 4 samples.

Results

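*Amh*, *Inha*, *Inhba*, *Inhbb*, *Fshr*, *Sox9*, *Wt1*, *Cldn11* and *Clu* encode hormones, a hormone receptor, transcription factors, a tight junction protein and a secreted chaperone that are commonly used to describe the state of Sertoli cells. The 9 genes were chosen by symbol from the 32285 genes counted in the testis libraries. Their unique molecular identifiers (UMIs, each a tag for 1 captured transcript) were followed in 28581 cells, of which 1554 formed 3 Sertoli-like clusters. Each library came from a testis of 1 pup of the C57BL/6N strain at postnatal day 15, and there were 2 wild-type and 2 *Meioc*-null pups. *Meioc* encodes a germ cell protein required for progression through meiotic entry, and its null allele is present in every cell of the animal. All 4 pups, controls included, were also heterozygous for an *Hspa2* null allele and homozygous for a *ROSA26* tdTomato reporter whose stop cassette was intact. The labels place the pups in 2 batches, each a wild-type and *Meioc*-null littermate pair that shares a replicate number. The supernatant that held the interstitium was discarded during dissociation, so cell shares are not those of the intact organ.

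Sertoli cells are the somatic cells of the seminiferous tubule that surround and nourish the germ cells. Before puberty they divide and secrete anti-Müllerian hormone (AMH), the product of *Amh*; as they mature they stop dividing, form the blood-testis barrier and secrete less AMH. Pituitary follicle-stimulating hormone (FSH) acts on them through the receptor encoded by *Fshr*. Inhibin, a dimer of the alpha subunit (*Inha*) and a beta subunit (*Inhba* or *Inhbb*), represses FSH release, whereas dimers of beta subunits alone form activins.

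The libraries held 11986 to 16486 barcodes and 158291903 to 190455307 UMIs, and 6211 to 8105 cells per library remained after filtering. The wild-type libraries yielded 372 and 383 Sertoli-like cells and the *Meioc*-null libraries 427 and 372. These were 5.99% and 4.73% of the wild-type cells and 5.81% and 5.38% of the *Meioc*-null cells. The wild-type mean was 0.237 percentage points below the *Meioc*-null mean, a difference within the spread between libraries (two-sided exact permutation test, p = 1, where 2 libraries against 2 can give no p below 0.333). The cells were named from 9 other Sertoli markers, such as *Rhox8* and *Defb19*, and both the 9 genes and the markers of every class were left out of the variable genes used for clustering. All 9 markers were detected, and their summed level was 13074 to 14117 UMIs per 1000000 (CPM, here per 1000000 UMIs of that cell class in that library). The clusters had been named from these same markers, so these values do not check the name. In the largest cluster 7 of the 9 were seen in at least 25% of the wild-type cells, and in both others all 9. Pairs of libraries shared 45 to 73 cell barcodes. *Meioc* itself was at 291 and 290.6 CPM in wild-type germ cells and at 345 and 280.0 CPM in *Meioc*-null germ cells. Because 3′ tags need not fall within the deletion, these counts do not check the genotype labels.

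Of the 9 genes, 8 were higher in Sertoli-like cells than in every other cell class present, in all 4 libraries. There were 10 other classes, of which the pachytene spermatocyte-like class had cells in the wild-type libraries alone. The exception was *Inhba*, which was highest in fibroblast-like cells. Sertoli-like cells contributed 4.67 to 6.71% of the UMIs of a library but 68.4 to 89.8% of the UMIs of each of the 8 genes. For *Inhba* they contributed 1.36 to 2.70%. A further 1618 cells (491 and 479 in wild type, 320 and 328 in *Meioc*-null) could be given no name; they count as no class in the orders of levels given here, and their values stand apart. These levels are a description: the classes were formed on the same cells, and differences between classes were not tested. Levels are compared between cells for 1 gene, not between genes, because 3′ tags are not scaled to transcript length.

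**Figure D1:**
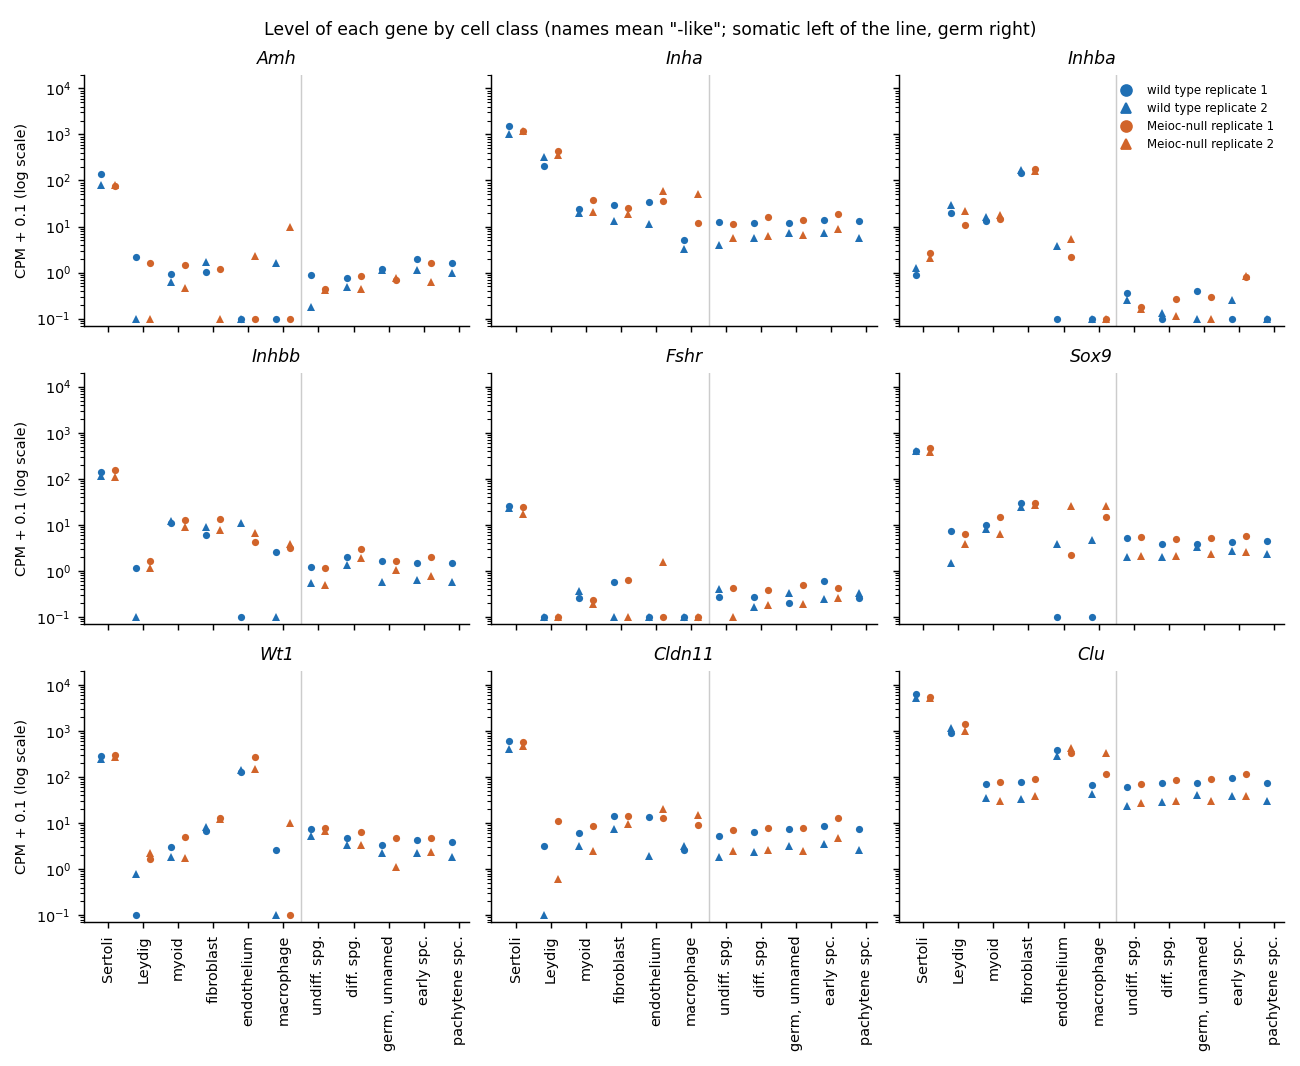
Level of each gene (UMIs per 1000000 plus 0.1, log scale) in 11 cell classes, with 1 point per library, blue for wild type and orange for *Meioc*-null, circles for replicate 1 and triangles for replicate 2. Points at 0.1 stand for 0 UMIs. The pachytene spermatocyte-like class has points for the wild-type libraries alone. In 8 of the 9 panels the Sertoli-like points are above every other class of the same library, and in the *Inhba* panel the fibroblast-like points are.

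The cells without a name held the 8 genes below the Sertoli-like level in every library, but in part above the classes that came next. In order of wild type replicates 1 and 2 and *Meioc*-null replicates 1 and 2, *Inha* was at 140.3, 19.3, 71.3 and 36.3 CPM in them, *Cldn11* at 66.6, 10.9, 50.2 and 15.5 CPM and *Clu* at 646, 101, 405 and 152 CPM. *Amh* was at 0.534 to 9.73 CPM, *Inhbb* at 1.07 to 12.5 CPM, *Fshr* at 0 to 1.71 CPM, *Sox9* at 9.85 to 33.8 CPM, *Wt1* at 4.74 to 29.2 CPM and *Inhba* at 3.74 to 14.8 CPM. Most of the *Inha* and *Clu* UMIs of these cells lay in 1 cluster led by haemoglobin genes such as *Hbb-bs*, with 275, 31, 86 and 27 cells in the same order, in which *Inha* was at 167 to 703 CPM and *Clu* at 953 to 2289 CPM.

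Among the hormone genes, *Amh* (chr10:80805243-80807648, GRCm38, plus strand) was at 139.9 and 81.4 CPM in Sertoli-like cells of the wild-type pups and at 74.4 and 81.8 CPM in those of the *Meioc*-null pups. Wild type replicate 1 stood above the other 3 libraries, which lay close together. Outside Sertoli-like cells *Amh* was low, with 0.409 to 0.995 CPM in germ cells, from 43 to 93 UMIs per library. Peritubular myoid-like cells, the contractile cells of the tubule wall, were at 0.353 to 1.38 CPM. Its next named class by mean was macrophage-like cells at 2.84 CPM, which rested on 9 UMIs, 8 of them in 2 cells of *Meioc*-null replicate 2. The levels of all named classes other than Sertoli-like cells overlapped the macrophage range of 0 to 9.79 CPM.

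*Inha* (chr1:75507077-75510366, plus strand), the alpha subunit, was at 1539 and 1021 CPM in Sertoli-like cells of the wild-type pups and at 1175 and 1204 CPM in those of the *Meioc*-null pups. It had a clear additional site in Leydig-like cells, the steroid-producing cells of the interstitium, at 207 and 331 CPM in the wild-type libraries and 432 and 355 CPM in *Meioc*-null. The Sertoli-like level was 2.72 to 7.43 times the Leydig-like level of the same library, and the ranges did not overlap. Every other named class was at or below 57.7 CPM, and the order among vascular endothelium-like, peritubular myoid-like, fibroblast-like and macrophage-like cells was within the spread between libraries. The summed level of the 9 Sertoli markers in the Leydig-like cells was 1032 to 1129 CPM, against 13074 to 14117 CPM in Sertoli-like cells, and the part of Sertoli RNA in the Leydig-like level of *Inha* was not tested. In the same Leydig-like cells *Amh* was at 0 to 2.10 CPM and *Fshr* at 0 UMIs in all 4 libraries, where a count of 0 allows up to 1.57 to 4.65 CPM; such limits and the intervals on shares cover counting error only.

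The genes for both beta subunits had different patterns. *Inhbb* (chr1:119415465-119422248, minus strand) was at 141 and 113 CPM in Sertoli-like cells of the wild-type pups and at 156 and 110.4 CPM in those of the *Meioc*-null pups. Peritubular myoid-like cells came next at 8.82 to 12.4 CPM, which overlapped the 6.03 to 13.4 CPM of fibroblast-like cells. The Sertoli-like level was 9.55 to 13.0 times the peritubular myoid-like level of the same library. Sertoli-like cells held 71.2 to 80.8% of the *Inhbb* UMIs and peritubular myoid-like cells 4.98 to 10.6%.

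*Inhba* (chr13:16011851-16031621, plus strand) was at 0.793 and 1.15 CPM in Sertoli-like cells of the wild-type pups and at 2.53 and 1.96 CPM in those of the *Meioc*-null pups, from 6, 9, 14 and 12 UMIs. In fibroblast-like cells, named from *Dcn* and *Clec3b*, it was at 144 and 169 CPM in the wild-type libraries and 181 and 158 CPM in *Meioc*-null. These cells held 57.4 to 70.1% of all *Inhba* UMIs while holding 1.70 to 1.91% of the UMIs of all genes. Leydig-like cells at 10.8 to 29.0 CPM and peritubular myoid-like cells at 13.2 to 17.4 CPM overlapped in level, and both lay above the Sertoli-like range in every library. Germ cells were at 0.0642 to 0.271 CPM, and macrophage-like cells had 0 UMIs in each library.

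The promoters of the beta subunit genes are shown because the genes share a hormone family but not a cell class. The windows are the 250 bases before the RefSeq start (GRCm38.p6), 5′ to 3′ on the gene's strand, with CpG dinucleotides in capitals. The window of *Inhbb* is chr1:119422249-119422498, minus strand, and that of *Inhba* is chr13:16011601-16011850, plus strand.
Inhbb: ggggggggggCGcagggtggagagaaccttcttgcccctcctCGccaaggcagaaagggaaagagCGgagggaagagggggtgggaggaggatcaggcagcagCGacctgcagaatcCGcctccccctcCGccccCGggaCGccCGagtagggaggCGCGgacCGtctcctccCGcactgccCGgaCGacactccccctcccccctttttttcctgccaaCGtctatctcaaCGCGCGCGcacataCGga
Inhba: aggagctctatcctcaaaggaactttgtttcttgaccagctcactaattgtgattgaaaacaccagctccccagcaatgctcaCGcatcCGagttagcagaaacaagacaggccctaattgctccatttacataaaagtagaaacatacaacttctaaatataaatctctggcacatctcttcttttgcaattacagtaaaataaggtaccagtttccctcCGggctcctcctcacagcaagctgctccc
The *Inhbb* window held 21 CpG dinucleotides and 68% G and C, and the *Inhba* window 3 and 43.2%. The medians over 32851 promoter windows were 6 CpG dinucleotides and 52.4%. Sequence composition was read from the reference and was not tested against expression.

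*Fshr*, the FSH receptor gene (chr17:88984952-89200675, minus strand), was sparse but restricted. It was at 26.0 and 22.6 CPM in Sertoli-like cells of the wild-type pups and at 24.4 and 17.3 CPM in those of the *Meioc*-null pups, from 197, 177, 135 and 106 UMIs. Germ cells were at 0.0856 to 0.315 CPM, so that the Sertoli-like level was 77.4 to 203 times theirs. Leydig-like and macrophage-like cells had 0 UMIs in every library, and no named class other than Sertoli-like cells exceeded 1.48 CPM. The classes below Sertoli-like cells could not be ordered at this depth.
The *Fshr* promoter is shown because it holds an E-box, a site type known from this promoter, here in capitals; the window is chr17:89200676-89200925, minus strand.
Fshr: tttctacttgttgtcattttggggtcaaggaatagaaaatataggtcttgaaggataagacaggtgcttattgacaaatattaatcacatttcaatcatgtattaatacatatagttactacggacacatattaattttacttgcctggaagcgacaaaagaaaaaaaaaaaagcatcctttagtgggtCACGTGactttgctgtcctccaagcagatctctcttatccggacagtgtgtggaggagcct
The letters CACGTG begin 61 bases before the start and read the same on both strands. They were looked for after the window had been read, and 6.02% of the 32851 windows hold them. The windows of 5 of the 9 genes were in the RefSeq table (*Inha*, *Inhbb*, *Cldn11*, *Inhba* and *Fshr*), and the SOX letters AACAAT, the GATA letters AGATAA and the cAMP response letters TGACG, searched on both strands, were in none of the 5. They are in 9.42%, 9.99% and 17.8% of all windows, and no motif searched contains another. The nuclear receptor letters AGGTCA, in 14.0% of all windows, were in the *Inha* window, whose RefSeq start lies 532 bases inside the gene as given above.

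Of the transcription factor genes, *Sox9* (chr11:112782224-112787760, plus strand), which directs Sertoli cell fate, was at 397 and 409 CPM in Sertoli-like cells of the wild-type pups and at 475 and 388 CPM in those of the *Meioc*-null pups. Fibroblast-like cells came next at 24.5 to 30.4 CPM, and the Sertoli-like level was 13.6 to 16.7 times that level. Macrophage-like cells at 0 to 25.7 CPM and vascular endothelium-like cells at 0 to 25.9 CPM had wide ranges that overlapped both the fibroblast-like and the peritubular myoid-like levels. Germ cell classes lay between 1.88 and 5.67 CPM.

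*Wt1* (chr2:105126529-105173616, plus strand), a zinc finger factor that Sertoli cells require to keep their identity, was not confined to Sertoli-like cells. It was at 283 and 242 CPM in Sertoli-like cells of the wild-type pups and at 302 and 267 CPM in those of the *Meioc*-null pups. In vascular endothelium-like cells, named from *Cdh5* and *Tm4sf1*, it was at 126 and 143 CPM in the wild-type libraries and 278 and 150.1 CPM in *Meioc*-null. The Sertoli-like level exceeded the endothelial one in each library, by 1.09 to 2.24 times, but the ranges over libraries overlapped. The summed level of the 9 Sertoli markers in the same endothelium-like cells was 139 to 667 CPM, against 13074 to 14117 CPM in Sertoli-like cells. These cells numbered 16, 31, 25 and 60, and *Wt1* UMIs were seen in 43.8 to 92.0% of them against 4.90 to 8.49% of germ cells, at median depths of 7133 to 15771 and 12849 to 16561 UMIs. All other named classes were at or below 12.8 CPM. With a limit of 500 detected genes, or of 5% mitochondrial UMIs, *Wt1* was no longer highest in Sertoli-like cells in every library. That left 7 of the 9 genes. The Sertoli-like class itself changed with these limits, from 1554 cells to 8442 and 885.

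*Cldn11* (chr3:31149920-31164324, plus strand), a claudin of the blood-testis barrier, was at 620.1 and 412 CPM in Sertoli-like cells of the wild-type pups and at 585 and 468 CPM in those of the *Meioc*-null pups. Both libraries of batch 1 were above both libraries of batch 2. Vascular endothelium-like cells at 1.83 to 20.7 CPM and fibroblast-like cells at 7.50 to 14.4 CPM came next among the named classes and overlapped each other and the germ cell classes.

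*Clu* (chr14:65968483-65981547, plus strand), the secreted chaperone clusterin, was at 6484 and 5199.6 CPM in Sertoli-like cells of the wild-type pups and at 5531 and 5233 CPM in those of the *Meioc*-null pups. It was also present in Leydig-like cells at 928 to 1413 CPM and in vascular endothelium-like cells at 291.5 to 423 CPM, and these ranges were separate from each other and from the Sertoli-like range. As for *Inha*, the part of Sertoli RNA in the Leydig-like level was not tested. Macrophage-like cells were at 41.9 to 117 CPM in 3 libraries and at 329 CPM in *Meioc*-null replicate 2, where the 269 UMIs lay in 14 of 70 cells. In germ cells *Clu* was at 74.3 and 31.6 CPM in the wild-type libraries and 91.8 and 31.4 CPM in *Meioc*-null, higher in both libraries of batch 1.

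The batch difference in germ cells was shared by other Sertoli genes. The germ cell level of the 8 genes other than *Inhba*, as a percentage of the Sertoli-like level of the same library, had a median of 1.06% and 0.625% in the wild-type libraries and 1.39% and 0.573% in *Meioc*-null. The same medians over the 9 Sertoli markers were 1.03% and 0.740%, and 1.42% and 0.731%. Both sets were thus higher in batch 1, in both genotypes, and the medians of the 8 genes and of the markers lay close together. *Inhba*, which has few UMIs in Sertoli-like cells, was in germ cells at 8.09% and 5.77% of its Sertoli-like level in wild type and at 10.7% and 7.75% in *Meioc*-null. Whether these germ cell UMIs came from free RNA was not tested.

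Depth differs between classes, so detection was also compared after thinning each cell to 1500 UMIs, which left out 21 of the 28581 cells. *Clu* was then seen in 90.8 to 93.0% of Sertoli-like cells (96.2 to 97.1% before thinning) and in 4.31 to 14.4% of germ cells (37.5 to 70.1% before). *Inha* was seen in 65.2 to 76.1% and 0.916 to 2.77%, and *Amh* in 5.42 to 12.9% and 0.0804 to 0.199%. A thinned cell therefore rarely shows *Amh* although the class as a whole carries it.

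The Sertoli-like cells were of unequal depth. Cluster 1 held 915 cells with a median of 2387 UMIs and a median of 4.66% mitochondrial UMIs, and led with *Cst9* and *Rhox8*. Cluster 2 held 423 cells with a median of 30145 UMIs and 8.95% mitochondrial UMIs, and led with *Clu*, *Cst12* and *Basp1*. Cluster 3 held 216 cells with a median of 35524.5 UMIs and 8.42% mitochondrial UMIs. Cluster 1 thus had 58.9% of the Sertoli-like cells but 9.59% of their UMIs, and the summed levels given above were mostly those of clusters 2 and 3. The deep clusters 2 and 3 held 46.5% and 49.6% of the Sertoli-like cells in wild type against 34.7% and 34.4% in *Meioc*-null, without overlap; the comparison of genotypes sums over these clusters, and with the 20% mitochondrial limit the shares were 70.8% and 77.1% against 67.1% and 75.4%.

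**Figure D2:**
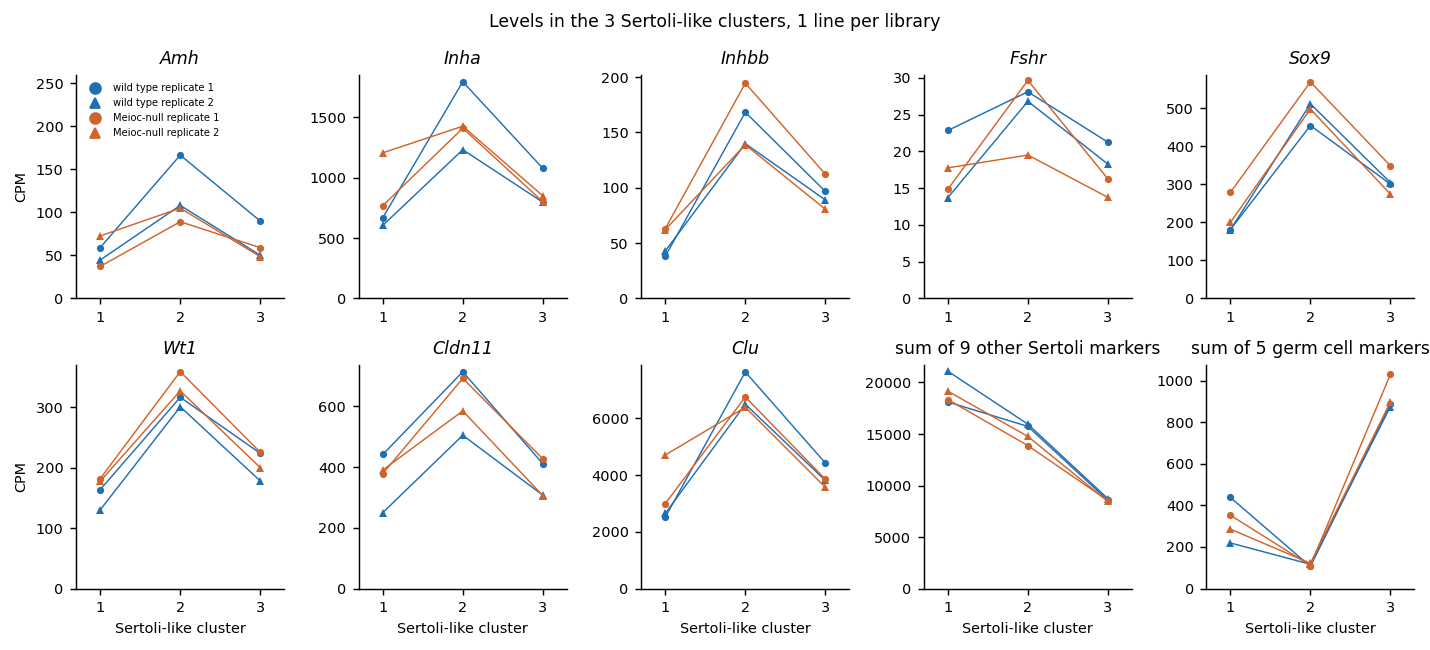
Level (UMIs per 1000000, linear axes from 0) of 8 genes and of 2 marker sums in Sertoli-like clusters 1, 2 and 3, with 1 line per library; *Inhba* is left out because it had few UMIs. The 8 genes peak in cluster 2 in every library, the sum of the 9 other Sertoli markers is highest in cluster 1 and lowest in cluster 3, and the sum of 5 germ cell markers is highest in cluster 3.

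Apart from *Inhba*, the 8 other genes were highest in cluster 2 in all 4 libraries. In cluster 1 they were at 0.226 to 0.910 of the cluster 2 level, with *Inhbb* at 0.226 to 0.447 and *Fshr* at 0.501 to 0.910 of it. The summed level of the other Sertoli markers went the other way and was 1.15 to 1.32 times higher in cluster 1 than in cluster 2. Such a sum follows its most abundant markers, and the markers were not compared singly. *Amh*, for example, was at 59.0, 44.6, 37.1 and 72.5 CPM in cluster 1 and at 166, 108, 89.0 and 105 CPM in cluster 2 of wild type replicates 1 and 2 and *Meioc*-null replicates 1 and 2. Wild type replicate 1 stood apart in cluster 2 and not in cluster 1. It also stood apart in cluster 3, at 89.8 CPM against 50.1, 58.9 and 48.4 CPM in the same order.

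In cluster 3 the 8 genes were at 0.462 to 0.756 of their cluster 2 level and the other Sertoli markers at 0.544 to 0.616. The sum of 5 germ cell markers such as *Ddx4* and *Dazl* was 875 to 1030.4 CPM there against 106 to 122 CPM in cluster 2, which is 7.36 to 9.32 times higher. All 5 were detected in each cluster. Clusters were formed on these cells, so none of these differences was tested, and the part that germ cell RNA has in cluster 3 was not tested.

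In single cells of clusters 2 and 3, the median number of the 9 genes detected was 8 in wild type replicate 1 and 7 in the other 3 libraries, against 3 in cluster 1 of every library. Among these deep cells the levels spread widely: *Inha* ran from 332 to 512 CPM at the 10th percentile to 1587 to 2659 CPM at the 90th. *Amh* was at 0 in 23 of 173 and 53 of 190 wild-type cells and in 54 of 148 and 34 of 128 *Meioc*-null cells. *Sox9* was at 0 in 0, 8, 6 and 10 of the same cells. For comparison, 3.68 to 7.49% of germ cells, at median depths of 12849 to 16561 UMIs, held a *Sox9* UMI.

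With deep cells thinned to 10000 UMIs, the pairs of genes that varied together most from cell to cell were *Inha* and *Clu* (Spearman's rho 0.373 to 0.604 over the 4 libraries), *Cldn11* and *Clu* (0.395 to 0.497) and *Inha* and *Cldn11* (0.260 to 0.491). *Amh* followed *Clu* at 0.104 to 0.403 and *Inha* at 0.157 to 0.344. *Fshr* had no rho above 0.188 with any of the others. These are descriptions over cells that share a library and fall in clusters 2 and 3, which differ in level, and they carry no p-value.

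The mitochondrial limit decided how many deep Sertoli-like cells entered the counts. Raising it from 10% to 20%, a setting chosen after seeing the data, gave 3435 Sertoli-like cells, of which 2518 were in deep clusters. Of those deep cells 2096, or 83.2%, had 10% or more mitochondrial UMIs. Per library the deep cells numbered 492 and 786 in the wild-type libraries and 464 and 776 in *Meioc*-null, with 421, 650, 357 and 668 of them at 10% or more.

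**Figure D3:**
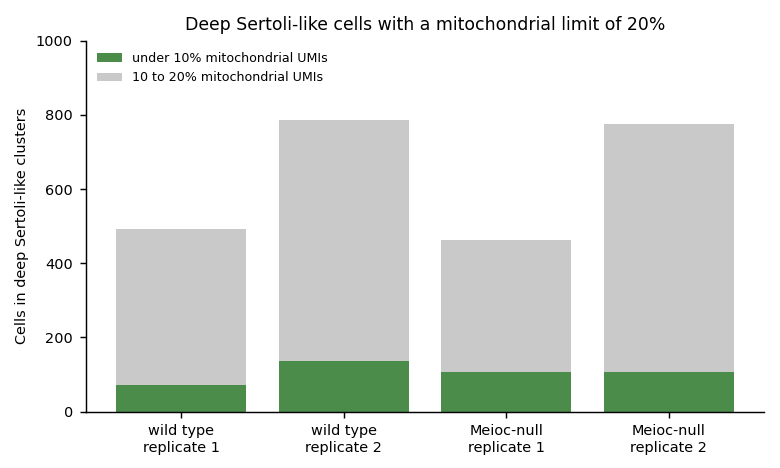
Number of cells in deep Sertoli-like clusters of each library when the mitochondrial limit is 20%, stacked by mitochondrial share (green, under 10%; grey, 10 to 20%). The grey part is the larger in every library, with 421, 650, 357 and 668 cells.

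For 8 genes the cells between 10% and 20% had levels like those below 10%. The ratio of the summed CPM of the former to the latter, per library, was 0.778 to 1.18 for *Amh*, 0.820 to 1.05 for *Inha*, 1.01 to 1.10 for *Inhbb* and 0.984 to 1.33 for *Fshr*. It was 1.00 to 1.13 for *Sox9*, 1.05 to 1.17 for *Wt1*, 0.990 to 1.09 for *Cldn11* and 0.852 to 1.01 for *Clu*. *Inhba* was too sparse to compare, with ratios from 0.343 upwards and 0 UMIs below 10% in *Meioc*-null replicate 1. With the 20% limit the same 8 genes were highest in Sertoli-like cells, and 3 of the 4 deep clusters were made up mostly of cells of 1 batch. With a limit of 5%, 885 Sertoli-like cells and 10 deep cells (5, 5, 0 and 0 per library) were left.

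The comparison of genotypes asks whether Sertoli cells differ where germ cells lack MEIOC. None of the 9 genes passed the test in Sertoli-like cells. Across all 12631 genes tested on UMIs summed per library (edgeR quasi-likelihood test, adjusted p under 0.05), 32 passed, which is 0.253%, 15 (0.119%) with the higher level in wild type, 17 (0.135%) with the higher level in *Meioc*-null; 549 had an unadjusted p under 0.05. DESeq2 called 27 genes and again none of the 9. With the replicate number as a block, which pairs littermates, 180 genes were called, still with none of the 9.

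**Figure D4:**
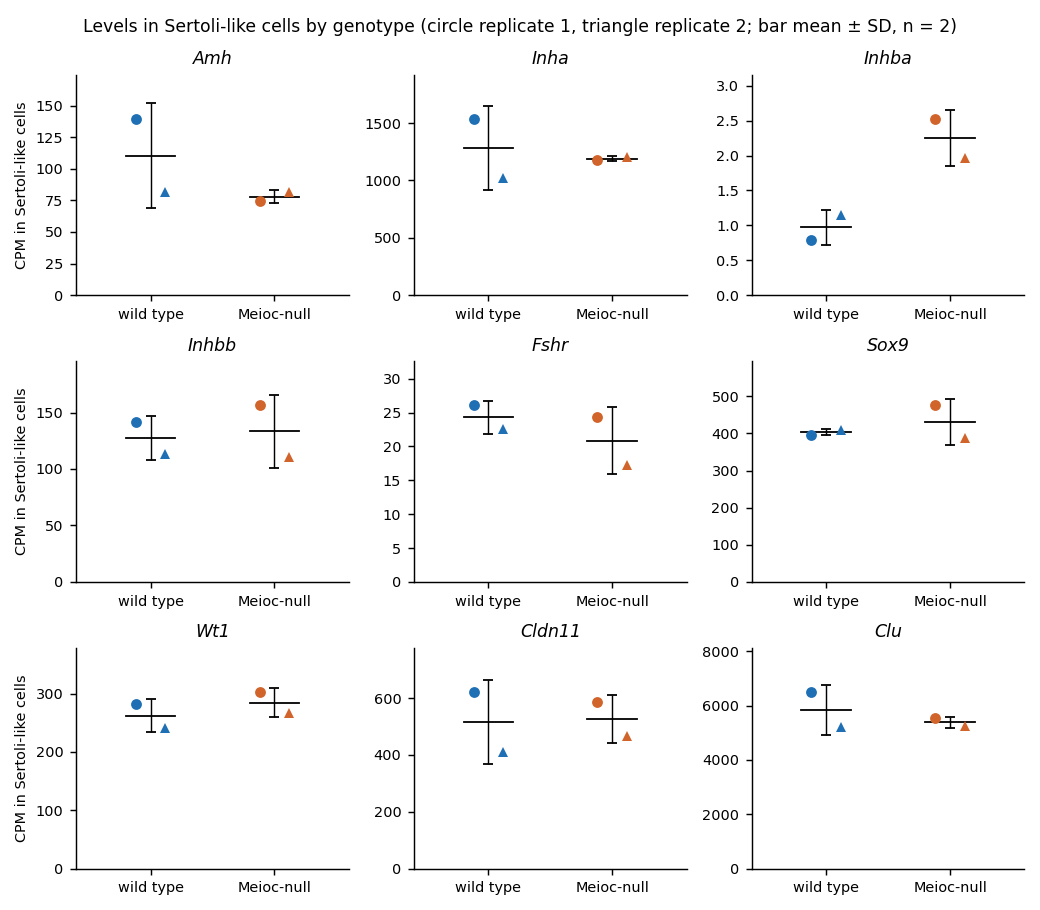
Level of each gene in Sertoli-like cells (UMIs per 1000000, axes from 0) by genotype, with 1 point per library, a line at the mean and a bar of 1 SD (n = 2). In the *Amh* panel 1 wild-type point is above the rest. *Inhba* is the gene for which the genotypes do not overlap, with both *Meioc*-null points above both wild-type points. Such a split of 2 points against 2 can arise without a difference.

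*Amh* averaged 110.6 ± 41.4 CPM in the wild-type libraries and 78.1 ± 5.19 CPM in *Meioc*-null (SD, n = 2). Its log2 fold change, wild type over *Meioc*-null, was 0.54 (SE 0.23, 95% interval 0.05 to 1.04; edgeR, unadjusted p = 0.0350, adjusted p = 0.988). Within batch 1 the difference was 0.99 and within batch 2 it was 0.00 on the log2 scale. The difference thus rested on wild type replicate 1: without it the log2 fold change was 0.10 (edgeR, adjusted p = 0.999), and without wild type replicate 2 it was 0.89 (edgeR, adjusted p = 0.00443). In cluster 1 alone it was -0.03. A genotype left with 1 library is assumed in such a fit to vary like the other.

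*Inhba* averaged 0.972 ± 0.252 CPM in the wild-type libraries and 2.25 ± 0.401 CPM in *Meioc*-null, with a log2 fold change of -1.14 (SE 0.53, 95% interval -2.25 to -0.03; edgeR, unadjusted p = 0.0446, adjusted p = 1.00). The groups did not overlap, but for 2 libraries against 2 an exact permutation test can give no p below 0.333. The share of all genes without overlap was not counted. The levels of *Inhba* rest on 41 UMIs in all, in 6 and 8 wild-type and 8 and 7 *Meioc*-null cells. The share of cells with a UMI thus overlapped, at 1.61% and 2.09% against 1.87% and 1.88%. With the 20% mitochondrial limit the log2 fold change was -0.22. The summed level of 5 fibroblast markers in the same Sertoli-like cells was 20.2 and 33.7 CPM in the wild-type libraries and 66.6 and 18.3 CPM in *Meioc*-null; fibroblast-like cells are the class richest in *Inhba*, and their part in this difference was not tested.

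In the sums over all Sertoli-like cells the other 7 genes lay close to no difference, and for each the genotypes overlapped. The log2 fold changes were 0.27 for *Fshr* (95% interval -0.16 to 0.70), 0.16 for *Clu* (-0.28 to 0.60) and 0.15 for *Inha* (-0.29 to 0.59). They were 0.02 for *Cldn11* (-0.41 to 0.44), -0.02 for *Inhbb* (-0.38 to 0.35), -0.05 for *Sox9* (-0.41 to 0.30) and -0.07 for *Wt1* (-0.41 to 0.27). The intervals for these 7 genes leave room for differences of up to 0.70 on the log2 scale. They come from the fit with genotype as its only term, which does not use the littermate pairs. In cluster 1 alone, *Inha*, *Inhbb*, *Sox9*, *Wt1* and *Clu* were higher in both *Meioc*-null libraries than in both wild-type libraries. The share of all genes that split in this way in cluster 1 was not counted. *Inhbb* was at 38.1 and 42.8 CPM in wild type against 63.1 and 62.2 CPM. *Fshr* overlapped, and the fit of cluster 1 called 7 of 6818 genes and none of the 8 of the set tested. Of these 8, 2 had an unadjusted p under 0.05 (edgeR), as had 262, or 3.84%, of the 6818. The result depended on the mitochondrial limit. At 5%, where a cluster led by the haemoglobin gene *Hbb-bs* held 189 and 50 wild-type and 48 and 28 *Meioc*-null cells, edgeR called 1658 of 9130 genes, or 18.2% (709 with the higher level in wild type and 949 in *Meioc*-null), and 7 of the 8 genes of the set that were tested, each higher in *Meioc*-null, for example *Inhbb* (log2 fold change -2.38, adjusted p = 0.00186) and *Amh* (-1.62, adjusted p = 0.0102). The part of the haemoglobin-rich cells in these calls was not tested. In counts simulated from these libraries, the test recovered 14.9% of genes changed 1.5-fold, 67.2% of those changed 2-fold and 95.5% of those changed 4-fold.

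**Figure D5:**
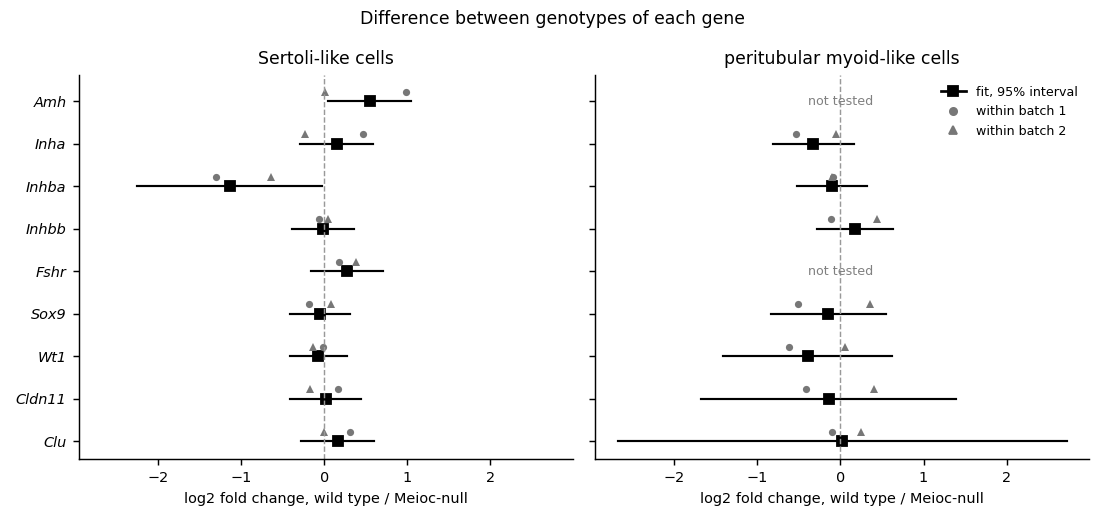
Log2 fold change of each gene, wild type over *Meioc*-null, in Sertoli-like cells (left) and peritubular myoid-like cells (right), as black squares with 95% intervals; grey circles and triangles are the differences within batch 1 and batch 2. All intervals include 0 other than those of *Amh* and *Inhba* in Sertoli-like cells, and neither of these passed the test over all genes.

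The genes that did pass included some markers of other cells, and the part of RNA from those cells in the calls was not tested. Of the 15 genes higher in wild type, 2 (*Piwil1* and *Tesmin*) were among the 8 markers of pachytene spermatocytes; the class named from them held cells of the wild-type libraries alone, in clusters built on wild-type cells onto which *Meioc*-null cells were placed, and the study's own clustering gave that name to some *Meioc*-null cells. Of the 17 genes higher in *Meioc*-null, 2 (*Myh11* and *Tagln*) were among the 5 markers of peritubular myoid cells. Genes outside the marker lists also led clusters of other cells, here named after their values were seen. *Fabp9* and *1700008K24Rik*, of the 15, led a pachytene spermatocyte-like cluster, and *Tpm2* and *Eln*, of the 17, led peritubular myoid-like clusters. *Fabp9*, *Pdcl2*, *Ldhal6b*, *1700102P08Rik* and *Tesmin* were also called, higher in wild type, in peritubular myoid-like cells. The summed pachytene markers were at 238 and 183 CPM in Sertoli-like cells of the wild-type pups and at 151 and 156 CPM in those of the *Meioc*-null pups, and the summed myoid markers at 288 and 237 against 499 and 373 CPM, with none of these markers at 0. Without germ-rich cluster 3, an alternative chosen after seeing the data, 6 genes were called, and with the deep clusters 2 and 3 alone 28 were; none of the 9 genes was called in either.

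In peritubular myoid-like cells, 7 of the 9 genes passed the filter on low counts, *Amh* and *Fshr* being too sparse, and none was called. Of 12661 genes tested 11, or 0.0869%, were called by edgeR, 9 (0.0711%) with the higher level in wild type, and 2 (0.0158%), *Cenpf* and *Rapgef5*, with the higher level in *Meioc*-null (both named after their values were seen), with 343 at an unadjusted p under 0.05 and 11 called by DESeq2. With the replicate block 80 genes were called, again none of the 9. *Inhbb*, the gene for which this class came next to Sertoli-like cells, was at 10.9 and 11.9 CPM in the wild-type libraries and 12.4 and 8.82 CPM in *Meioc*-null (log2 fold change 0.18, 95% interval -0.28 to 0.64). *Inhba* was at 13.2 and 15.8 against 14.7 and 17.4 CPM (log2 fold change -0.10, 95% interval -0.53 to 0.32).

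The lists of pathway genes chosen for the 9 genes held no called gene in Sertoli-like cells. Over all genes 32 of 12631, or 0.253%, were called there. At that share lists this short would seldom hold a call, so its absence says little about the pathways. Of 15 genes of activin, inhibin and AMH signalling, all tested, 0 were called in either direction in Sertoli-like cells and 10 were higher in wild type, with a median log2 fold change of 0.09 against 0.00 over all genes. *Amhr2*, the AMH receptor, was at 1020.0, 738, 833 and 845 CPM in wild type replicates 1 and 2 and *Meioc*-null replicates 1 and 2 (log2 fold change 0.11). *Fstl3*, a follistatin-like protein that binds activin, was at 108, 60.8, 128 and 85.4 CPM (-0.29). The genotypes overlapped for both genes. A lack of overlap is given below for single genes, but the share of all genes without overlap was not counted. The co-receptor *Tgfbr3*, named here after its values were seen, was at 1.32 and 1.53 CPM in wild type against 6.32 and 2.62 CPM in *Meioc*-null, without overlap (log2 fold change -1.57; edgeR, adjusted p = 0.391). With the replicate block it was the 1 gene of the list called (-1.52; edgeR, adjusted p = 0.0277), where 1.43% of all genes were. In peritubular myoid-like cells, whose markers were also higher in *Meioc*-null Sertoli-like cells, *Tgfbr3* was at 127 to 152 CPM, and their part in this difference was not tested.

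Of the 8 genes of FSH receptor and cAMP signalling, 0 were called, with a median log2 fold change of -0.02. *Gnas*, the stimulatory G protein subunit, was at 1028 to 1248 CPM over the 4 libraries. *Prkar1a*, a regulatory subunit of protein kinase A, was at 218 and 214 CPM in wild type against 248 and 223 CPM in *Meioc*-null, without overlap (log2 fold change -0.08; edgeR, adjusted p = 1.00). Of the 9 other transcription factors 0 were called (median 0.01), with *Nr0b1* at 154 to 237 CPM. The genotypes overlapped for *Nr0b1*.

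Of 14 genes of blood-testis barrier junctions 0 were called (median 0.01), with *F11r*, a junctional adhesion molecule, at 223 to 302 CPM. The actin-bundling *Espn* was at 380.0 and 380.1 CPM in wild type against 362 and 348 CPM in *Meioc*-null, without overlap (log2 fold change 0.14; edgeR, adjusted p = 1.00). Of 11 secreted and maturation products 0 were called (median 0.04), with the protease *Ctsl* at 3076 to 4023 CPM. The cystatin *Cst12* was at 5287 and 4872 CPM in wild type against 4561 and 4305 CPM in *Meioc*-null, without overlap (log2 fold change 0.24; edgeR, adjusted p = 1.00). Of 7 genes of the cell cycle and its exit 0 were called, although 5 of the 7 were lower in wild type and their median of -0.28 was the farthest from that of all genes. The cell cycle inhibitor gene *Cdkn1a* was at 18.4 and 22.4 CPM in wild type against 31.4 and 28.0 CPM in *Meioc*-null (log2 fold change -0.50; edgeR, adjusted p = 0.751), and the proliferation marker *Mki67* at 49.5 and 58.7 against 73.1 and 62.6 CPM (-0.28; edgeR, adjusted p = 1.00). Neither overlapped between genotypes, and both were named after their values were seen. *Top2a*, a gene of dividing cells, was at 98.9 and 132 CPM in the wild-type libraries and 148 and 149 CPM in *Meioc*-null (log2 fold change -0.32, SE 0.16; edgeR, adjusted p = 1.00), and *Thra*, a thyroid hormone receptor, at 148 and 179 against 146 and 149 CPM (0.19). The early spermatocyte marker sum in the same cells was 223 and 322 CPM in the wild-type libraries and 384 and 317 CPM in *Meioc*-null. The differentiating spermatogonia sum was 128 and 144 against 126 and 164 CPM, and the undifferentiated one 67.6 and 64.4 against 73.1 and 72.1 CPM. The germ cell sum was 324 and 411 against 360 and 407 CPM. The part of germ cell RNA in the *Top2a*, *Mki67* and *Cdkn1a* values was not tested.

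The genes whose pattern over 41 class and library sums was most like each of the 9, by Pearson's r of log2(CPM + 1), were mostly other genes of Sertoli-like cells. *Fshr* was followed by *E330035G20Rik* (r = 0.990) and *Eif4e1b* (0.983), *Cldn11* by *Tmem114* (0.984) and *Wfdc10* (0.978), and *Clu* by *Amhr2* (0.974) and *Ccdc160* (0.960). For *Inha* they were *Sdsl* (0.970) and *Smpx* (0.967), for *Amh* *Pate6* (0.961) and *Cidea* (0.960), and for *Sox9* *Nr0b1* (0.937) and *Tsx* (0.923). *Inhbb* was nearest to *Reep1* (0.941) and *Spaar* (0.930), *Wt1* to *Exoc3l2* (0.939) and *Fam189a2* (0.933), and *Inhba* to *S100b* (0.964) and *Efemp1* (0.963). Among the 9 genes, *Amh* and *Fshr* were most alike except for *Inha* and *Clu* (r = 0.934 and 0.95), and *Inhba* had no r above 0.292 with any other. The sums share libraries and classes, so these values describe likeness and carry no test.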

How the data were processed

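Single-cell 3′ RNA libraries (Chromium v3.1) came from 2 wild-type and 2 *Meioc*-null testes. Per the labels and the study's methods, the authors made the deposited UMI counts with Cell Ranger 4.0.0 on mm10 (GRCm38); these raw counts per gene and barcode are not normalized. The submitters' processing notes also name Seurat.

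Barcodes with more than 1000 detected genes and under 10% mitochondrial UMIs were kept. Doublets were removed at Scrublet's own threshold, which took 1.94 to 4.58% of barcodes per library; this threshold was chosen after clusters were seen, because removal by top scores at 0.8% per 1000 barcodes had taken whole somatic clusters. Wild-type cells were clustered (scanpy 1.11.5; 2000 variable genes without the 9 genes and the markers, 30 principal components, 20 neighbours, resolution 1), and *Meioc*-null cells were placed by their 30 nearest neighbours. Classes were named from marker lists, with naming rules set after the clusters were seen. The 9 genes and all lists were chosen with earlier results of these data known. In each pathway list, called genes and otherwise the 2 of highest mean level were named, except for 1 gene that is not reported here; for likeness, the 2 genes of highest r.

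UMIs were summed per library and class and tested with edgeR 4.0.16 (quasi-likelihood, TMM, filterByExpr, genotype as the only term) with Benjamini-Hochberg adjustment over all genes; DESeq2 1.42.0 was an alternative. The edgeR script was tested on simulated data. Nothing beyond the separate pups separates biological from technical spread. Replicate numbers mark littermate pairs and batches per the labels: deviations from the genotype means correlated between same-numbered libraries at r = 0.302 over 12631 genes in Sertoli-like cells and 0.174 over 12661 genes in peritubular myoid-like cells. The *Meioc*-null samples are whole-body nulls. In the single-cell data, the study ran its differential tests in germ cell clusters only. Promoter windows came from RefSeq and 5 of the 9 genes matched.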

Additional observations from a re-analysis of the deposited data

How the results depend on the processing

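The number of genes called in Sertoli-like cells (32) moved with the processing: 157 with no filter beyond 1 UMI, 0 with a UMI required in 25% of cells (145 at an unadjusted p under 0.05, edgeR), 180 with the replicate block, 49 with no doublet removal, 1658 at the 5% mitochondrial limit, 7 in cluster 1 alone and 89 to 125 with 1 library left out. Of the alternatives chosen after seeing the data, doublet removal at the loading rate gave 71, leaving out the germ-rich cluster 6 and the 20% mitochondrial limit 2 (*Cox8c* and *Fabp9*, named after their values were seen). Of the 9 genes, 7 of the 8 tested were called at the 5% limit, where 18.2% of 9130 genes were, and 0 to 1 with 1 library left out (*Amh*, without wild type replicate 2). In peritubular myoid-like cells 80 genes were called with the block and 4 to 76 with 1 library left out, against 11; the 4, without *Meioc*-null replicate 2, were *Cyp11a1*, *Kcnk3*, *Pdcl2* and *Stra8*, also named after their values were seen. The causes were not tested. The replicate block changed no call among the 9 genes.

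The difference in the share of Sertoli-like cells turned to 0.409 points with doublet removal at the loading rate and 0.0103 points at the 20% limit. Log2 fold changes turned sign at the 5% limit for *Amh* (-1.62), *Inha* (-1.86), *Fshr* (-1.22), *Cldn11* (-1.58) and *Clu* (-1.80), and in cluster 1 alone for *Amh* (-0.028), *Inha* (-0.60), *Cldn11* (-0.13) and *Clu* (-0.54). Other turns were near 0: *Inhbb* with no filter (0.0077), no doublet removal (0.015), 500 detected genes (0.081) and no germ-rich cluster (0.00040); *Sox9* with 500 detected genes (0.029); *Cldn11* with the 25% filter (-0.0097), the block (-0.0065), doublets at the loading rate (-0.017) and the 20% limit (-0.0013); and *Inha* (-0.038) and *Wt1* (0.016) at the 20% limit. With 1 library left out the ranges were -0.18 to 0.42 for *Inha*, -0.21 to 0.22 for *Inhbb*, -0.16 to 0.071 for *Sox9*, -0.19 to 0.045 for *Wt1*, -0.31 to 0.29 for *Cldn11* and -0.0050 to 0.32 for *Clu*. *Inhba* kept its direction in all 15 alternatives that tested it, but its log2 fold change ran from -1.42 without wild type replicate 2 to -0.22 at the 20% limit. The depth of *Inhba* and *Fshr* limits what their levels can show.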
